A study of Mus musculus with 2 samples.

Results

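The genes described here are 7 signals and sensors of acute inflammation, Il1b, Il1a, Il1rn, Il18, Tnf, Nlrp3 and Ptgs2, taken by name from a table of 31053 gene rows; all 7 were found. They were counted cell by cell in immune cells, macrophages and microglia, of the optic nerve, which links retina and brain. For the injured group, males and females of the wildtype strain 129S1/SvlmJ underwent a crush at 8 weeks of age, and 1 library of 727 cells was made 2 weeks later, at 10 weeks of age. The other library, of 51 cells, came from uninjured nerves of the same strain and age, and the labels give no allele or agent for either group beyond the crush. One label field instead gives the age at crush as the age of the mice. The sources used here do not say how many animals were pooled, and 1 library stands for each condition, so no test between conditions was possible. The groups compared below are therefore 2 libraries, and every interval is an exact 95% interval that covers counting error only.

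IL-1β and IL-1α, the products of Il1b and Il1a, act through 1 shared receptor, and the antagonist encoded by Il1rn occupies that receptor without signalling. IL-1β and IL-18 are made as inactive precursors that caspase-1 cleaves, and caspase-1 is activated on the inflammasome, a complex built on a sensor such as NLRP3. TNF is cut from the cell surface by ADAM17, and PTGS2, also called COX-2, is the inducible enzyme that starts prostaglandin synthesis. In macrophages and microglia, NF-κB is a main activator of most of these genes, and Il1b and Nlrp3 messages are known to be induced before any cytokine is released. Counts of messenger RNA do not measure the release of mature cytokine.

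In the mm10 assembly with GENCODE vM21 gene models, all 7 are protein-coding genes. Il1b (chr2:129364570-129371139, minus strand) and Il1a (chr2:129299610-129309972, minus strand) lie 54.6 kb apart, and Il1rn lies on the same chromosome (chr2:24336853-24351494, plus strand). Il18 is at chr9:50554827-50581840 (plus), Tnf at chr17:35199381-35202007 (minus), Nlrp3 at chr11:59541568-59566956 (plus) and Ptgs2 at chr1:150100031-150108227 (plus).

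Promoters are shown for Il1b, Il1a and Tnf, and for Cxcl1, Cxcl2 and Nfkbia, 3 genes whose levels varied with Tnf or Il1b between cells. Each run is the 250 bases before a RefSeq start site (GRCm38.p6, the assembly called mm10), 5′ to 3′ on the strand of the gene. Capitals mark 3 motifs searched on both strands, a κB-like site (GGG, any 2 bases, then TTTCC), an AP-1 site TGANTCA and a TATA box TATAAA.

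Il1b, chr2:129371140-129371389, minus: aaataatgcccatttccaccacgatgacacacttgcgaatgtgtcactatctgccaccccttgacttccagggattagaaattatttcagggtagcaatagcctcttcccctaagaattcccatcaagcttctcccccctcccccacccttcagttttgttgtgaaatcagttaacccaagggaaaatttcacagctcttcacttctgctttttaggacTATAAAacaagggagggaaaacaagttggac
Il1a, chr2:129309973-129310222, minus: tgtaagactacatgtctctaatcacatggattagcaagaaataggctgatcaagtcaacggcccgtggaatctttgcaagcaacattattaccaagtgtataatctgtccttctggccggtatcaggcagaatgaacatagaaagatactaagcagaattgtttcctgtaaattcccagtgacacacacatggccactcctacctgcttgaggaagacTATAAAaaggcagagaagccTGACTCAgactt
Tnf, chr17:35202008-35202257, minus: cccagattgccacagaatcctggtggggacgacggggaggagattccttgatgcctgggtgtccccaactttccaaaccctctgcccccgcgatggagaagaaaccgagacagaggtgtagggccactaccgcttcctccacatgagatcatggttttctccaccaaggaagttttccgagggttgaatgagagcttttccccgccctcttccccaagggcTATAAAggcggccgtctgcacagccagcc
Cxcl1, chr5:90890995-90891244, plus: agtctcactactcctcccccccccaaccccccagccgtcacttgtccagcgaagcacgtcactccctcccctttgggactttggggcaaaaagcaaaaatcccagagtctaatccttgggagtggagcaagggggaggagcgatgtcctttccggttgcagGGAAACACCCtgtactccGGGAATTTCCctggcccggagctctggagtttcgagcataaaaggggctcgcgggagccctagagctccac
Cxcl2, chr5:90903649-90903898, plus: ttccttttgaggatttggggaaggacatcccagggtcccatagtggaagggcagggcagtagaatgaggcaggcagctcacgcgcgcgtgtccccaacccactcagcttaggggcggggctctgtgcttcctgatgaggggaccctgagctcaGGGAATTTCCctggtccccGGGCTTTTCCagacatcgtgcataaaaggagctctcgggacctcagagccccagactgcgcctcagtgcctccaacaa
Nfkbia, chr12:55492648-55492897, minus: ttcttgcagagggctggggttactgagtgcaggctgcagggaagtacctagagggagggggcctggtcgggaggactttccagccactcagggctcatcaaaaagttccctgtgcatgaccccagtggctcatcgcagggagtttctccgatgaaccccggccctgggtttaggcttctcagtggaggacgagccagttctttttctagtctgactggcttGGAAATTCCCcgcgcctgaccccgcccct

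Over windows of 300 bases (250 before and 50 after the start site), the κB-like letters occurred in 1.63% of 32851 mouse promoters, the AP-1 letters in 7.81% and the TATA letters in 13.6%. The TATA letters began 31 bases before the start in Il1b, 32 bases before it in Il1a and 29 bases before it in Tnf. Among the members the κB-like letters were found at start sites of Il1rn only, and the promoters of Cxcl1 and Cxcl2 each held 2 copies and that of Nfkbia 1 copy. Cxcl1, Cxcl2 and Nfkbia thus all hold these letters. Most genes with a window that ranked highest with Tnf or Il1b lacked them, as given below. Il1a also held the AP-1 letters, 12 bases before its start. These are matches of letters, in windows that leave out enhancers and more distant sites.

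The injured library held 3697992 unique molecular identifiers (UMIs, 1 for each captured molecule) and the uninjured library 87499, with medians of 1123 and 888 UMIs per cell. Deep cells are those with 5000 UMIs or more, and the shallow ones were split by whether Malat1, a nuclear RNA, took at least 1% of their UMIs (Malat1-rich) or less (Malat1-poor). The injured library had 144, 91 and 492 such cells and the uninjured library 4, 17 and 30. One uninjured deep cell had 10194 haemoglobin UMIs among its 11100. Defining microglial genes such as Sparc and Cx3cr1 were present in both libraries, and 476 of 727 injured and 39 of 51 uninjured cells had UMIs of at least 2 of 9 such markers. Oligodendrocyte markers, led by Mbp, stood at 1142 CPM (UMIs per 1000000 of all UMIs summed) after crush and at 8160 CPM without it, and their part in the results below was not tested.

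At least 1 UMI of any of the 7 genes was found in 295 of 727 injured cells (40.6%) and in 17 of 51 uninjured cells (33.3%). The injured cells held 5589 UMIs of the 7 genes and the uninjured cells 268. In the uninjured library 186 of those 268 UMIs (69.4%) came from 2 deep cells, so the uninjured levels rest on these cells. Of the 17 uninjured cells with a member, 16 had UMIs of at least 2 microglial markers, and in the injured library 224 of 295 did.

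Il1b, which encodes the precursor of IL-1β, was seen in more injured cells than any other member. It had 3612 UMIs in 178 of 727 injured cells (24.5%, 21.4 to 27.8) and 160 UMIs in 8 of 51 uninjured cells (15.7%, 7.02 to 28.6). The summed level was 977 CPM (945 to 1009) with crush and 1829 CPM (1556 to 2135) without, 1.87-fold lower after crush (1.59 to 2.19). One uninjured cell of 9567 UMIs held 93 of the 160 uninjured UMIs. Without it the ratio of injured to uninjured was 1.14 (0.892 to 1.47), and without the top cell of each library 1.06 (0.833 to 1.37). Both intervals include no difference. Without both uninjured cells that were richest in the 7 genes, the ratio was 1.43 (1.08 to 1.93), so the direction for Il1b depended on 1 cell. With each cell weighted equally it stayed lower, at -0.24 on the log2 scale, but no longer reached the 1.5-fold used below for a call.

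The place of Il1b differed by cell class. In deep cells it stood at 1076 CPM (1039 to 1114) after crush, in 73 of 144 cells, and at 3089 CPM (2541 to 3720) without it, in 2 of 4 cells. Without the uninjured deep cell that held most Il1b, the ratio turned to 1.58 (0.996 to 2.66), an interval that includes no difference. In Malat1-rich cells it stood at 1663 CPM (1478 to 1864) in 39 of 91 injured cells and 1913 CPM (1415 to 2529) in 6 of 17 uninjured cells, of whose 49 UMIs 31 lay in 1 cell of 2035 UMIs. Without that cell the uninjured level was 763 CPM and the ratio 2.18 (1.35 to 3.73), so here too the call depended on 1 cell; this setting was chosen after seeing the data. In Malat1-poor cells 142 UMIs lay in 66 of 492 injured cells, while 0 of 30 uninjured cells had one, at a median of 657 UMIs per cell. That allows a share of cells with a UMI of up to 10% by a limit of 3 counts, and of up to 11.6% by the exact interval. Set against a floor of 3 counts over those 30 cells, the injured Malat1-poor cells were at least 2.16-fold higher.

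Il1a, which encodes the alarmin IL-1α, was the member furthest apart between libraries. It had 513 UMIs in 96 injured cells and 69 UMIs in 11 of 51 uninjured cells, or 139 CPM (127 to 151) against 789 CPM (614 to 998), 5.68-fold lower in the injured library (4.36 to 7.32). A single uninjured cell of 6406 UMIs held 43 of the 69 UMIs, and without it Il1a was 2.31-fold lower (1.5 to 3.43). Without the 2 richest uninjured cells it was 1.61-fold lower, with an interval from 0.915 to 2.64 that includes no difference. Among Malat1-rich cells, which these 2 cells do not enter, it was 8.03-fold lower (3.45 to 19.0), with 12 UMIs in 7 of 91 injured and 14 UMIs in 7 of 17 uninjured cells.

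Il1rn, the natural brake on the IL-1 receptor, had 144 UMIs in 52 injured cells and 5 UMIs in 2 uninjured cells, both deep. Its levels were 38.9 CPM (32.8 to 45.8) and 57.1 CPM (18.5 to 133), a ratio of 0.681 (0.285 to 2.13) that includes no difference. One cell held 4 of the 5 uninjured UMIs, and without it the ratio turned to 3.16 (0.558 to 126) on a single UMI. Il18, whose product is cleaved on the same complex as IL-1β, was scarce, with 70 UMIs in 53 injured cells and 3 UMIs in 3 uninjured cells. Its ratio was 0.552 (0.181 to 2.74), and no injured cell had more than 3 UMIs of it. The direction rests on those 3 uninjured UMIs, and with each cell weighted equally it turned, to 0.33 on the log2 scale.

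Tnf had 555 UMIs in 66 of 727 injured cells (9.08%, 7.09 to 11.4) and 21 UMIs in 6 of 51 uninjured cells (11.8%, 4.44 to 23.9). The levels were 150 CPM (138 to 163) and 240 CPM (149 to 367), a ratio of 0.625 (0.405 to 1.02). Without the uninjured cell that held 10 of the 21 UMIs the ratio turned to 1.11 (0.614 to 2.23), and without the 2 richest cells it was 0.976 (0.541 to 1.97). In Malat1-rich cells it was 5.73-fold lower in the injured library (2.22 to 14.5), from 12 UMIs in 9 of 91 cells and 10 UMIs in 4 of 17 cells.

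Nlrp3, the inflammasome sensor, was the member called higher in the injured library. It had 478 UMIs in 129 of 727 injured cells (17.7%, 15.03 to 20.7) and 6 UMIs in 5 of 51 uninjured cells (9.80%, 3.26 to 21.4). The levels were 129 CPM (118 to 141) and 68.6 CPM (25.2 to 149), with a ratio of 1.89 (0.860 to 5.16) that includes no difference. With each cell weighted equally Nlrp3 turned, at -0.15 on the log2 scale. Ptgs2 had 217 UMIs in 47 injured cells, while all 4 uninjured UMIs lay in the 9567-UMI cell. Its ratio was 1.28 (0.494 to 4.75), which includes no difference. Leaving that cell out takes away every uninjured UMI of Ptgs2, so what remains follows from the removal. Against the floor of 3 counts the injured library was then at least 1.52-fold higher, and at least 1.33-fold without the top cell of each library.

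A gene was called higher or lower when it differed 1.5-fold after 10 CPM were added to both levels. By that rule 1 of the 7 members was higher (Nlrp3) and 4 were lower (Il1b, Il1a, Il18 and Tnf), with a median log2 ratio of -0.61. Of 4021 genes compared, 32.8% were called higher and 21.8% lower, with a median of 0.17; 3 members (Il1rn, Il18 and Ptgs2) were seen in too few cells to be among those genes. In deep cells 1 member was higher and 6 were lower, where 49.8% and 15% of all genes were. In Malat1-rich cells 3 were higher and 3 lower (36.4% and 30.7% of all genes), and in Malat1-poor cells 5 were higher and 1 lower (47.8% and 19.8%). Members with 0 uninjured UMIs account for 2 of the 3 higher calls in Malat1-rich cells (Il1rn and Ptgs2) and all 5 in Malat1-poor cells. Of those 7 calls, Il1b in Malat1-poor cells alone lay above the floor of 3 counts. In the 4 uninjured deep cells haemoglobin genes stood at 283671 CPM because of the cell named above. This lowers the uninjured level of every other gene in deep cells and so raises its ratio, for members and all genes alike.

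**Figure D1:**
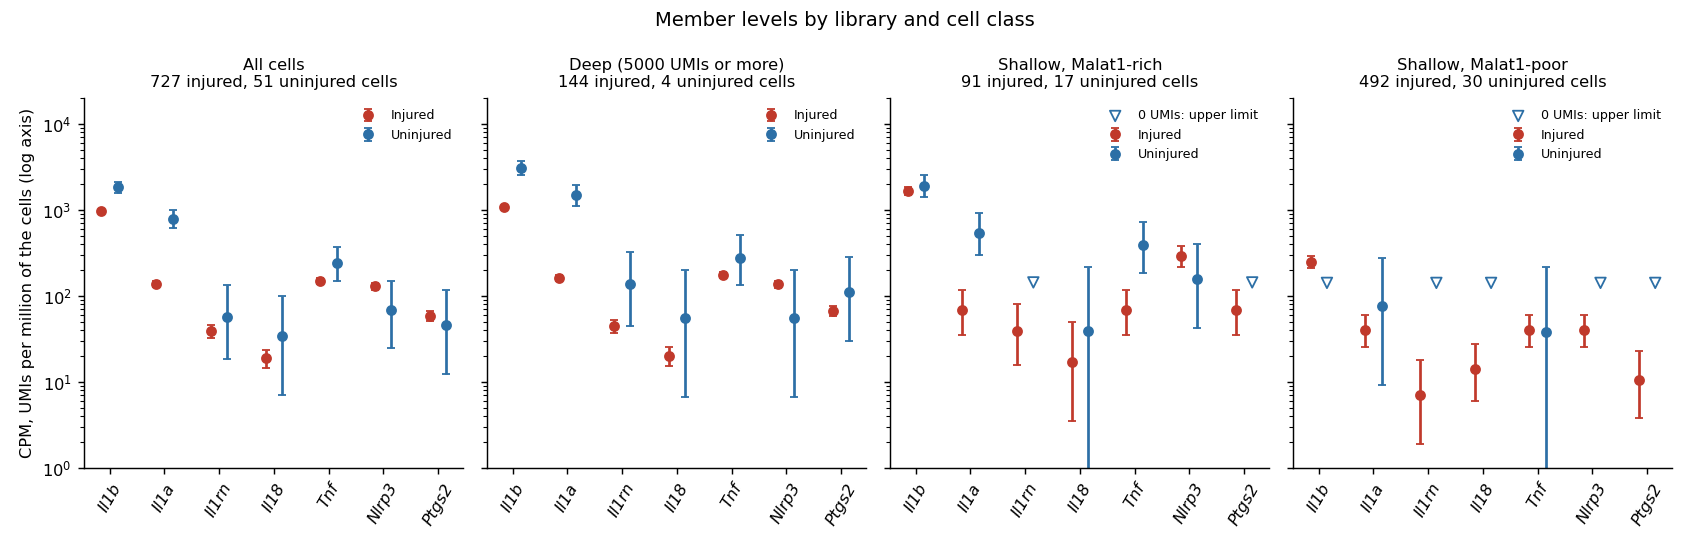
Level of each member in CPM (log axis) in all, deep, Malat1-rich and Malat1-poor cells of the injured (red) and uninjured (blue) library, with exact 95% Poisson intervals; open triangles give the upper limit where a library had 0 UMIs. Il1a lies lower in the injured library in all cells, in deep and in Malat1-rich cells, while the intervals of Il1rn, Il18, Nlrp3 and Ptgs2 are wide in the uninjured library.

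Single uninjured cells show how the genes combined. The cell of 9567 UMIs held 93 Il1b, 10 Il1a, 1 Il1rn, 1 Il18, 1 Nlrp3 and 4 Ptgs2 UMIs and no Tnf. The cell of 6406 UMIs held 43 Il1a, 18 Il1b, 10 Tnf, 4 Il1rn and 1 Nlrp3. Both had the complement gene C1qa (56 and 26 UMIs) and the microglial gene P2ry12 (4 and 10 UMIs), and neither had a UMI of Mrc1, Pf4, S100a8 or S100a9, although the cell of 6406 UMIs had Csf3r and Cxcr2, listed as neutrophil genes. The third richest, of 2035 UMIs, held 31 Il1b and no other member, with 0 C1qa and 1 P2ry12 UMI. A further deep uninjured cell of 8863 UMIs, with 9 Mrc1 and 17 Pf4 UMIs, genes of border macrophages, held 1 Il18 UMI and no other member.

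In the injured library most UMIs of the members lay in few cells, as did most UMIs of all genes. For Tnf, 6 of 727 cells held at least 50% of all UMIs, for Ptgs2 5 cells, for Il1a 7 and for Il1rn 9. For Il1b and Nlrp3 it took 13 cells each, and for Il18 18 cells. Of the Tnf UMIs 91.0% lay in cells of over 15000 UMIs, against 74.4% for Il1b, 72.4% for Nlrp3 and 68.4% for the UMIs of all genes, which 99 cells held. Cells with a single UMI made up 35 of the 66 Tnf cells, 57 of the 178 Il1b cells and 40 of the 53 Il18 cells.

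**Figure D2:**
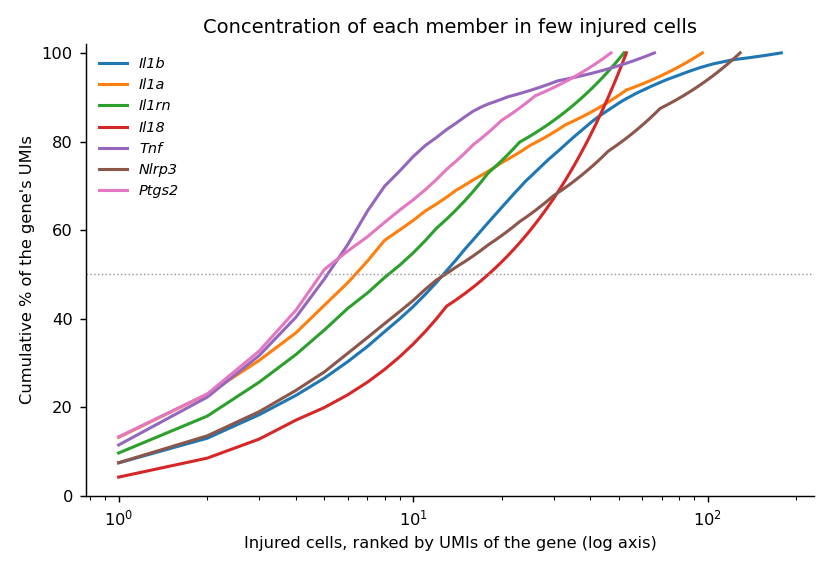
Cumulative percentage of the UMIs of each member (vertical axis) against the number of injured cells, ranked by UMIs of that gene (horizontal log axis); the dotted line marks 50%. The Tnf and Ptgs2 curves pass 50% at 6 and 5 cells, and the Il18 curve at 18 cells.

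The richest injured cells carried different members. The cell with most Il1b, of 33192 UMIs, had 271 Il1b, 36 Nlrp3, 32 Il1a and 19 Tnf UMIs. The second, of 25055 UMIs, had 201 Il1b and 9 Il1rn UMIs but 0 of Il1a, Tnf and Nlrp3. A cell of 28531 UMIs held most Tnf (64) and most Il1a (68), with 191 Il1b UMIs. In contrast, a cell of 37554 UMIs had 52 Tnf and 24 Il1a but 0 Il1b, and one of 24625 UMIs had most Ptgs2 (29), with 39 Il1a, 29 Nlrp3, 0 Il1b and 1 Tnf. All 5 of these cells had between 300 and 520 UMIs of C1qa, but not every rich cell did. A cell of 12636 UMIs had 76 Il1b and 20 Ptgs2 UMIs, with 0 C1qa and 3 Apoe. Another, of 10461 UMIs, had 100 Il1b and 11 Il1rn UMIs, with 6 C1qa and 154 Apoe.

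Detection followed depth. Il1b was seen in 11.0% of injured cells under 600 UMIs, in 15.6% from 600 to under 1000, in 23.0% from there to under 5000, in 42.2% from 5000 to 15000 and in 54.5% over 15000 UMIs. Il1a was at 5.86% from 1000 to under 5000 UMIs and 63.6% over 15000, and Tnf at 5.86% and 29.3%. Among uninjured cells of 1000 to under 5000 UMIs, Il1a was seen in 6 of 18 (33.3%, 13.3 to 59.0) against 15 of 256 injured cells (5.86%, 3.32 to 9.48), and these intervals do not overlap. For the other members the intervals of the libraries overlapped in every depth class.

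**Figure D3:**
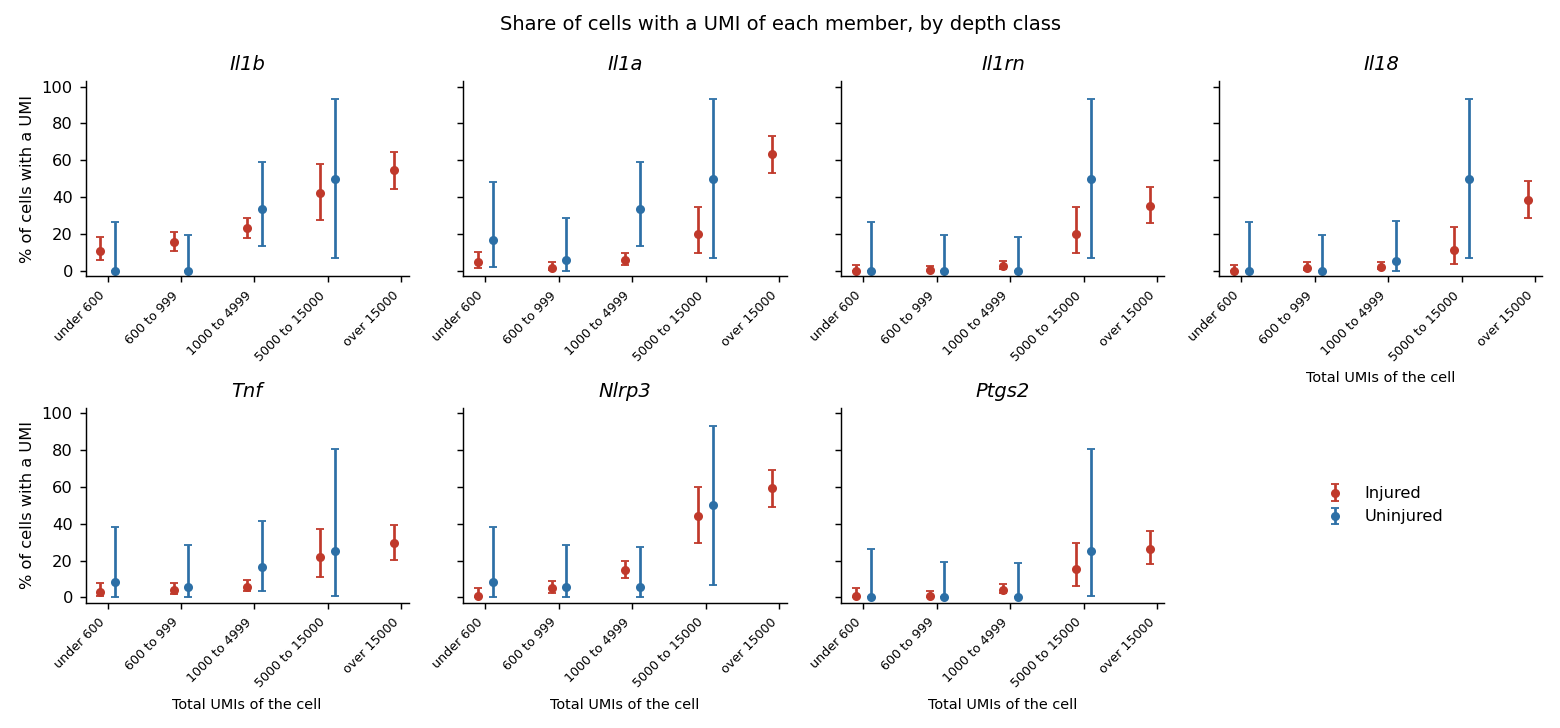
Percentage of cells with a UMI of each member in 5 classes of total UMIs, for the injured (red) and uninjured (blue) library, with exact 95% Clopper-Pearson intervals. For each member the injured share is higher over 15000 than under 600 UMIs, and the intervals of the libraries part in 1 place, Il1a at 1000 to under 5000 UMIs; the uninjured library has no cell over 15000 UMIs.

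Each cell was also thinned to 500 UMIs, which left out 2 uninjured cells. Il1b was then seen in 22.2% (15.7 to 29.9) of deep, 35.2% (25.4 to 45.9) of Malat1-rich and 9.96% (7.46 to 12.9) of Malat1-poor injured cells, so the Malat1-rich cells stood above the Malat1-poor cells at equal depth. Before thinning the shares were 50.7%, 42.9% and 13.4%. Nlrp3 had the same order, with 12.1% (6.19 to 20.6) of Malat1-rich and 1.42% (0.574 to 2.91) of Malat1-poor cells. In the deep cells its thinned share was 4.86%. At least 2 microglial markers were found in 38 of the 91 Malat1-rich, 301 of the 492 Malat1-poor and 137 of the 144 deep injured cells, and those 38 cells held 109 of the 293 Il1b UMIs of their class. Monocyte markers stood at 159 CPM and neutrophil markers at 380 CPM in the Malat1-rich injured cells, against 26.4 and 137 CPM in the Malat1-poor ones, and the part of these markers was not tested. The mitochondrial share was 10.8% in Malat1-rich injured cells with Il1b and 12.3% in those without. It was 1.56% and 1.15% in Malat1-poor and 2.46% and 2.57% in deep injured cells. The part of this difference between the classes was not tested either. Il1a, over all cells, was at 3.85% (2.57 to 5.52) in the injured and 14.3% (5.94 to 27.2) in the uninjured library. Thinned shares of Il1rn, Il18, Tnf and Ptgs2 were under 5% in each injured class, too low to compare.

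A level of background was read from 6 injured cells with at least 2 T cell markers, of which 1 had a C1qa UMI. With a median of 4482.5 UMIs against 1123 for the library, they held 0 UMIs of 6 members, although 6 cells are too few to bound a share. Tnf, which T cells can express, had 1 UMI in each of 3 of the 6. Monocyte markers stood at 47.3 CPM in the injured library, with none in the uninjured one. Of neutrophil markers Csf3r led, and Retnlg, Ly6g and Ngp were at 0. Cells with at least 2 neutrophil markers were 37, of which 34 had C1qa; they held 532 of 3612 Il1b UMIs. Il1b stood at 680 CPM (623 to 741) in the 30 deep cells with such markers and at 1215 CPM (1170 to 1262) in the other 114.

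Of the 144 deep injured cells, 125 held at least 1 member, 70 held 3 or more and 2 held all 7. Among 91 Malat1-rich cells 56 held at least 1 and 9 held 3 or more, and among 492 Malat1-poor cells 114 and 3 did. In the uninjured library 6 of 51 cells held 3 or more. Thinned to 5000 UMIs, 23.6% of the deep injured cells held 3 or more, against 48.6% before.

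Nlrp3 was seen more often in deep cells that held Il1b, Il1a, Tnf or Il1rn. It was seen in 51 of 73 deep cells with Il1b (69.9%, 58.0 to 80.1) and in 28 of 71 without (39.4%, 28.03 to 51.7). With Il1a the shares were 69.4% (57.5 to 79.8) of 72 cells and 40.3% (28.9 to 52.5) of 72. With Tnf they were 79.5% (63.5 to 90.7) of 39 cells and 45.7% (36.0 to 55.7) of 105, and with Il1rn 81.8% (67.3 to 91.8) of 44 and 43.0% (33.1 to 53.3) of 100. For these 4 pairs the intervals did not overlap. Cells with a member were also deeper: the median was 20958 UMIs with Il1b and 18845 without, and 27925 with Tnf and 18606 without. Thinned to 5000 UMIs, Nlrp3 was in 43.1% of cells with Il1b and 17.7% of those without, with intervals still apart. With and without Tnf it was in 44.4% and 25.6%, and those intervals overlap (25.5 to 64.7 and 18.02 to 34.5). With and without Il1a it was in 47.1% (29.8 to 64.9) and 23.6% (16.1 to 32.7), and with and without Il1rn in 50% (30.6 to 69.4) and 24.1% (16.7 to 33.0); both pairs of intervals overlap as well.

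Il1b also went with its antagonist and with Ptgs2. Il1rn was seen in 45.2% (33.5 to 57.3) of deep cells with Il1b and 15.5% (8.00 to 26.0) of those without. Ptgs2 was seen in 34.2% (23.5 to 46.3) and 11.3% (4.99 to 21.0). Thinned to 5000 UMIs, the Il1rn shares were 32.3% (21.2 to 45.1) and 8.86% (3.64 to 17.4), while those of Ptgs2, 18.5% (9.92 to 30.0) and 10.1% (4.47 to 19.0), overlap. Il18 was seen in 31.5% and 28.2%, with intervals that overlap widely.

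For Tnf and Il1b the shares overlapped. Tnf was seen in 22 of 73 deep cells with Il1b (30.1%, 19.9 to 42.0) and in 17 of 71 without (23.9%, 14.6 to 35.5). Across the 144 cells the Pearson correlation of log2(UMIs per 10000 + 1) was 0.25 between Tnf and Il1b, 0.50 between Tnf and Il1a, 0.45 between Il1b and Nlrp3, and 0.54 between Il1a and Nlrp3. It was -0.03 between Tnf and Il1rn, and Il18 lay between -0.11 and 0.07 with every other member. These correlations describe cells of 1 library and carry no test; with log total UMIs as a covariate, r of Tnf and Il1b was 0.23.

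The 144 deep injured cells thus fell into 22 with both Tnf and Il1b, 17 with Tnf alone, 51 with Il1b alone and 54 with neither. Their median depths were 28228, 24625, 18622 and 18381.5 UMIs. The 17 include the 3 deep cells with at least 2 T cell markers, which held 3 Tnf and 0 Il1b UMIs. Of the 17 cells, 14 had a UMI of Lyz2 and 14 had at least 2 microglial markers. Il1rn was seen in 10 of the 22 cells with both (45.5%, 24.4 to 67.8) and in 23 of the 51 with Il1b alone (45.1%, 31.1 to 59.7). It was seen in 1 of the 17 with Tnf alone (5.88%, 0.149 to 28.7) and in 10 of the 54 with neither (18.5%, 9.25 to 31.4). Only the intervals of Il1b alone and Tnf alone lie apart, and those of every other pair of groups overlap. Il1a stood at 441 CPM (389 to 498) with both, 244 CPM (197 to 298) with Tnf alone, 90.3 CPM (72.5 to 111) with Il1b alone and 33.5 CPM (23.0 to 47.0) with neither.

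The chemokine genes Cxcl1 and Cxcl2, which encode attractants of neutrophils, also differed between these groups; they were picked by their correlation with Tnf in the same cells, given next, so their order here is a description. Cxcl1 stood at 615 CPM with both and 756 CPM with Tnf alone, but at 72.0 CPM with Il1b alone and 4.06 CPM with neither. Cxcl2 stood at 3818, 1754, 348 and 46.7 CPM. Single cells weigh in these sums: 331 of the 684 Cxcl2 UMIs with Tnf alone lay in 1 cell, and 113 of the 295 Cxcl1 UMIs. Microglial markers stood at 8545, 6354, 6709 and 6485 CPM in the 4 groups, border macrophage markers at 524, 556, 361 and 305 CPM and neutrophil markers at 109.9, 92.3, 147 and 139 CPM. The part of these markers in the differences was not tested.

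**Figure D4:**
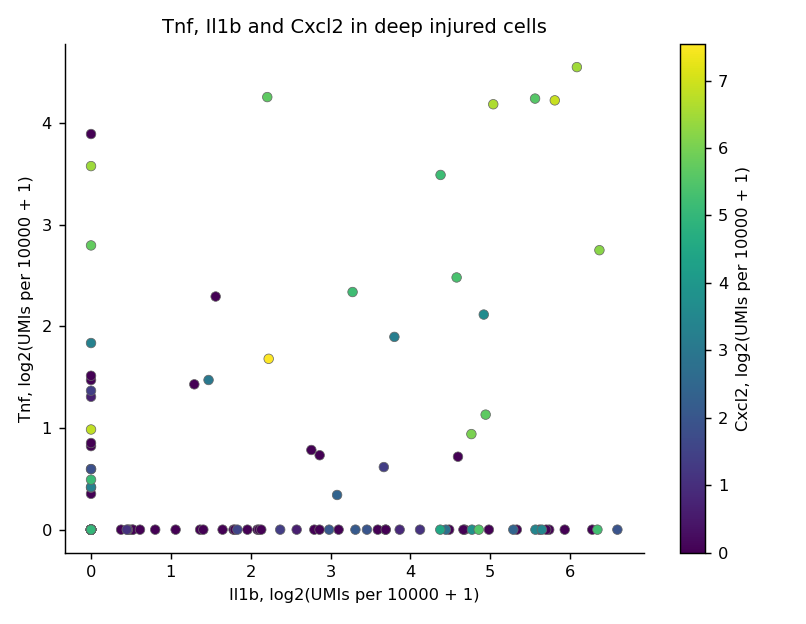
Tnf (vertical) against Il1b (horizontal), both as log2(UMIs per 10000 + 1), for 144 deep injured cells, coloured by Cxcl2 on the same scale. The 51 cells along the bottom have Il1b without Tnf, the 17 along the left edge Tnf without Il1b, and the 54 with neither share 1 point at the origin.

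Genes were ranked by their correlation with Tnf among 8142 genes seen in at least 10% of the 144 cells. The top was held by Cxcl1 (r = 0.67) and Cxcl2 (0.66), followed by Bcl2a1a (0.62), a survival gene, Gem (0.61), a small GTPase, Phlda1 (0.60) and Mir155hg (0.59), the host transcript of miR-155. Nfkbia (0.56), which encodes the inhibitor IκBα, the adhesion gene Icam1 (0.52), Bcl2a1d (0.50) and Il1a (0.50) came next. Irf1, Ppp1r15a, Tnfaip3, Gadd45b and Sdc4 completed the 15, down to r = 0.47. Bcl2a1a and Bcl2a1d are near-identical copies whose reads may be split between them, so each is uncertain. The 99th percentile of all genes was 0.27.

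The genes named here were picked by their correlation in the same cells, so their levels describe that ranking and are no separate result. The level of Cxcl1 was 671 CPM in the 39 deep cells with Tnf and 38.0 CPM in the 105 without. Nfkbia was seen in 97.4% of cells with Tnf and 81.9% of those without, at 2377 and 579 CPM. Mir155hg was seen in 35.9% and 4.76%. These shares were not thinned, and the median depth was 27925 UMIs with Tnf and 18606 without. Lowest with Tnf were Lyz2 (-0.34), the lysozyme of myeloid cells, Ms4a7 (-0.29), Gdpd3 (-0.28), Sec14l1 (-0.28) and Pltp (-0.27). Lyz2 stood at 10236 CPM in cells with Tnf and 18550 CPM in those without. Without cells that held at least 2 T cell or neutrophil markers, its r with Tnf was -0.29.

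With Il1b the order was another. Cd83, an activation marker of antigen-presenting cells, led (r = 0.59), followed by Nfkbia (0.52), Cd14 (0.50), the co-receptor for lipopolysaccharide, Arl5c (0.46), the chemerin-binding receptor gene Ccrl2 (0.46) and Marcksl1 (0.45). Gadd45b, Icam1 and Nlrp3 followed, each at 0.45. Nfkbiz, Dennd4a, Ier3, Ehd1, Rel, which encodes an NF-κB subunit, and Cxcl2 completed the 15, down to 0.43. As with Tnf, these genes were picked in the same cells, so the levels given next describe the ranking. Cd14 stood at 1992 CPM in the 73 cells with Il1b and 1007 CPM in the 71 without, and Cd83 at 942 and 403 CPM. Lowest with Il1b were Prdx1, Fabp5 and Ndufa3, each at -0.30, with Vps29 (-0.29) and Rinl (-0.27). Fabp5, a fatty acid carrier, stood at 1016 and 2036 CPM.

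The lists of 15 shared 4 genes, Cxcl2, Gadd45b, Icam1 and Nfkbia. Some genes leaned to 1 side: Dennd4a had r of 0.44 with Il1b and 0.05 with Tnf, Rel 0.43 and 0.14, and Phlda1 0.24 and 0.60. Whether these pairs of correlations differ was not tested. In the 45 cells of 5000 to 15000 UMIs alone, where Tnf had 15 UMIs, 3 of the 15 genes stayed on each list, against 14 for Tnf and 11 for Il1b in the 99 deeper cells, so the rankings rest on the deepest cells. Without cells that held at least 2 T cell or neutrophil markers, 13 stayed for Tnf and 9 for Il1b.

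**Figure D5:**
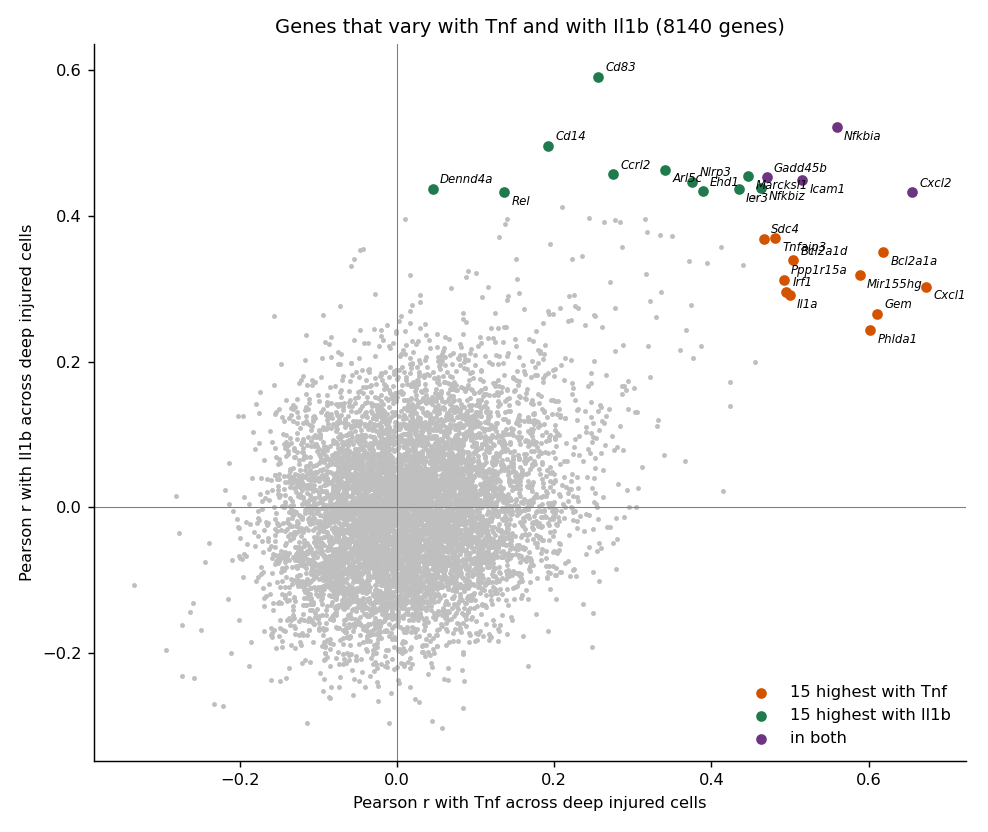
Pearson r with Tnf (horizontal) and with Il1b (vertical) across 144 deep injured cells, 1 grey point for each of 8140 genes; orange, green and purple mark the 15 highest with Tnf, the 15 highest with Il1b and the 4 in both. Cxcl1 and Cxcl2 lie furthest to the right, at 0.67 and 0.66, and Cd83 highest, at 0.59.

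Promoter windows were found for 13 of the 15 genes highest with Tnf (none for Gem and Phlda1) and 10 of those highest with Il1b (none for Cd83, Cd14, Arl5c, Nfkbiz and Ehd1). The κB-like letters were in 4 of the 13 (Cxcl1, Cxcl2, Nfkbia and Tnfaip3) and 3 of the 10 (Cxcl2, Nfkbia and Rel), where 1.63% of all promoters held them. In the Cxcl2 promoter printed above the copies begin 97 and 78 bases before the start, and in that of Cxcl1 89 and 71 bases before it.

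The wider pathway was read from 6 lists, of which members in at least 5% of the cells of a library were measured. Of the IL-1 family ligands 4 were measured, all of them described above, and 3 were called lower (all 4 in deep cells, 2 in the Malat1-rich class and 1 in the Malat1-poor class, where 3 were higher); as above, 32.8% and 21.8% of all genes were called higher and lower. Of 9 genes for IL-1 and IL-18 receptors and adaptors, 4 were called higher and 1 lower, with a median log2 ratio of 0.20, close to the 0.17 of all genes. In deep cells 5 were higher and 1 lower, in Malat1-rich cells 4 and 1, and in Malat1-poor cells 6 and 1. Of all genes 49.8%, 36.4% and 47.8% were higher and 15%, 30.7% and 19.8% lower in those classes. All 4 higher calls of the list over all cells had 0 uninjured UMIs, and of them Il18bp alone cleared the floor. Il18bp, which encodes the secreted trap for IL-18, had 352 injured and 0 uninjured UMIs, at least 2.78-fold higher. The signalling kinase gene Map3k7 was 6.88-fold lower (2.61 to 15.4), from 43 and 7 UMIs. Irak4 and Irak3, an essential kinase and an inhibitor of the pathway, had 80 and 50 injured and 0 uninjured UMIs, which does not clear the floor.

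Among 14 inflammasome and processing genes, the member Nlrp3 included, 5 were higher and 6 lower (median -0.45), where 32.8% and 21.8% of all genes were. Within classes the order changed: in deep cells 8 were higher and 4 lower (median 1.13), in Malat1-poor cells also 8 and 4 (1.10), and in Malat1-rich cells 4 and 7 (-0.54). Of all genes 49.8%, 47.8% and 36.4% were higher and 15%, 19.8% and 30.7% lower in those classes, with medians of 0.58, 0.49 and 0.020. Ninj1, needed for membrane rupture in dying cells, had a ratio of 5.70 (1.94 to 27.7), from 723 and 3 UMIs. Casp4, the caspase that senses cytosolic lipopolysaccharide, was 4.99-fold lower (2.71 to 8.55), and Txnip, an NLRP3 partner and redox regulator, 5.66-fold lower (3.61 to 8.56), with 14 of its 26 uninjured UMIs in 1 cell. Naip2, whose reads may be split with near-identical copies, had 95 injured and 0 uninjured UMIs, under the floor.

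Among 12 TNF genes, the member Tnf included, 1 was higher and 7 lower (median -0.64), where 32.8% and 21.8% of all genes were. In deep and in Malat1-poor cells 5 were higher and 6 lower (medians -0.15 and -0.38), and in Malat1-rich cells 4 and 6 (-0.40). The shares of all genes were 49.8%, 47.8% and 36.4% higher and 15%, 19.8% and 30.7% lower in those classes. The receptor gene Tnfrsf1a was 2.28-fold lower (1.196 to 3.97), and for Tnfrsf1b, the other TNF receptor, the ratio was 4.09 (0.725 to 163) with only 1 UMI in uninjured cells. Birc3 and Birc2, ubiquitin ligases of the receptor complex, were 3.96-fold (1.99 to 7.16) and 3.04-fold (1.49 to 5.59) lower.

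Among 12 prostaglandin and leukotriene genes, the member Ptgs2 included, 1 was higher and 7 lower (median -0.77), where 32.8% and 21.8% of all genes were. In deep and in Malat1-rich cells 3 were higher and 6 lower (-0.51 and -0.48), and in Malat1-poor cells 4 and 5 (-0.098). The shares of all genes were 49.8%, 36.4% and 47.8% higher and 15%, 30.7% and 19.8% lower in those classes. Ptgs1, the constitutive partner of Ptgs2, was 6.502-fold lower (4.203 to 9.72), seen in 18 of 51 uninjured and 92 of 727 injured cells. Hpgd, which inactivates prostaglandins, was 8.63-fold lower (3.90 to 17.2), Ptgds, a prostaglandin D synthase, 6.26-fold (2.57 to 13.2) and Ltc4s, a leukotriene synthase, 2.52-fold (1.32 to 4.401).

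Of 20 NF-κB subunit and feedback genes 4 were higher and 9 lower (median -0.50), where 32.8% and 21.8% of all genes were. In deep cells 5 were higher and 11 lower (median -0.86), and in Malat1-rich cells 5 and 7 (-0.052). In Malat1-poor cells the order changed to 9 and 3 (0.50). The shares of all genes were 49.8%, 36.4% and 47.8% higher and 15%, 30.7% and 19.8% lower in those classes. Socs3 and Zfp36, feedback genes that damp cytokine signalling and cytokine messages, were 3.95-fold (3.35 to 4.64) and 3.39-fold (2.82 to 4.06) lower. Their uninjured UMIs were spread over 21 and 24 of 51 cells. Ikbkg, the regulatory subunit of the IκB kinase, was 6.26-fold lower (1.59 to 17.97) on 4 uninjured UMIs, and Tnip1 had 97 injured and 0 uninjured UMIs, under the floor. Within the deep injured cells, 6 of the 20 lay at or above the 99th percentile of correlation with Tnf and 8 with Il1b. Nfkbia, Tnfaip3 and Nfkbiz led with Tnf (0.56, 0.48 and 0.46). For inflammasome genes the set differs from the 14 above, as members are left out and genes had to be among those ranked. Of these 14, 0 lay there with Tnf and 1 with Il1b, Casp4 (0.32), while Nlrp3 itself had r of 0.38 with Tnf and 0.45 with Il1b.

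Among the deep injured cells, the summed level of Tnf was higher in cells with at least 2 of 7 border macrophage markers. Pf4 led these 7 markers with 1007 UMIs in the deep injured cells, before Folr2 (107) and Mrc1 (56), and Lyve1 was not seen. In the 52 cells with at least 2 of the 7 markers Tnf stood at 279 CPM (251 to 309). In the other 92 it stood at 95.5 CPM (81.2 to 112), with median depths of 25202 and 17797 UMIs. By share, 34.6% (22.0 to 49.1) and 22.8% (14.7 to 32.8) of the cells had a Tnf UMI, and these intervals overlap. Il1b stood at 1178 CPM (1120 to 1239) and 995 CPM (948 to 1045), and Ptgs2 was lower in the marker cells, at 42.3 CPM (31.9 to 55.1) against 87.1 CPM (73.4 to 102.5). The part of depth and of single cells in these differences was not tested.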

How the data were processed

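Cells of dissected and digested mouse optic nerve were captured with 10x Genomics 3′ chemistry v2, per the labels' protocols. The submitters' processing notes name Cell Ranger 1.3, Seurat 4.0.3 and the build mm10. The file the authors deposited holds raw UMI counts, genes in rows and cells in columns, not normalized, with each cell's condition in its second line. It held 778 cells, already filtered by the authors to macrophages and microglia of 200 to 6500 genes. The sources used here do not say how they were selected. No barcode occurred in both libraries. Rows turned into dates (26) stayed in the totals but were not compared.

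Levels are summed UMIs as CPM, not divided by gene length since reads come from 3′ ends. Log2 ratios add 10 CPM. A gene entered the comparison if 10% or more of the cells in either library had it, and 5% for the lists. Levels carry Poisson, shares Clopper-Pearson and ratios conditional binomial intervals at 95%; a count of 0 is bounded with 3 counts over the cells summed. No doublet caller was run. Correlations use log2(UMIs per 10000 + 1). The fold rule and the ranking were tested on simulated data. Computation used numpy 2.4.6, scipy 1.17.1 and pandas 2.3.3.

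The members and the lists were chosen with earlier results of these data known. Genes were named by rule: the 7 members, in each list up to 4 measured genes furthest from 0 in log2 ratio, and the 15 highest and 5 lowest correlations with Tnf and Il1b, without mitochondrial, ribosomal and predicted genes; other names are leading markers or were chosen after their values were seen.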

Additional observations from a re-analysis of the deposited data

How the results depend on the processing

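The summed contrast depended on few uninjured cells. Of 77 values of the 7 members under other settings, 51 stayed within the counting interval of the main value, 17 moved beyond it and 9 reversed. For Il1b the log2 ratio turned from -0.90 to 0.084 without the top cell of each library, 0.18 without the top uninjured cell, 0.51 without the 2 richest uninjured cells and 4.70 in Malat1-poor cells only. Within classes, without the uninjured cell richest in Il1b, it turned from -1.51 to 0.65 in deep cells and went from -0.20 to 1.11 in Malat1-rich cells. Tnf turned from -0.64 to 0.14 without its top uninjured cell and 0.055 in Malat1-poor cells. Il18 turned from -0.61 to 0.33 and Nlrp3 from 0.83 to -0.15 with equal weight of cells, and Il18 to 1.27 in Malat1-poor cells. The cause was not tested beyond these left-out cells. Leaving out uninjured cells alone, over all cells or within a class, and the correlations without the 5 cells richest in Tnf or Il1b, were chosen after seeing the data.

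Members called higher went from 1 to 3 without the top cells, without the top uninjured cell, without the 2 richest or in Malat1-rich cells, and to 5 in Malat1-poor cells. Members called lower went from 4 to 2 with 50 CPM added or equal weights, and to 1 in Malat1-poor cells and without those same top cells. With deep cells from 10000 UMIs, 7 were higher and 0 lower against a single uninjured cell, which is the haemoglobin cell and gives no comparison; the Malat1-rich calls then became 1 higher and 5 lower. A Malat1 divide at 2% gave 2 lower in place of 1 in Malat1-poor cells. Over all genes, 50 CPM gave 798 higher and 583 lower in place of 1317 and 876, and no filter gave 2982 and 3101. List genes called higher went from 15 to 9 with 50 CPM, and those called lower from 33 to 27.

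Thinned to 500 UMIs, 23.0% of injured cells held any member in place of 40.6%, and 23.6% of deep cells thinned to 5000 held 3 or more in place of 48.6%. Of the 15 genes highest with Tnf and with Il1b, 3 each remained in cells of 5000 to 15000 UMIs, and 9 of those with Il1b without T cell or neutrophil marker cells. Ms4a7 turned from -0.29 to 0.024 with Tnf in cells of 5000 to 15000 UMIs. Depth limits every ratio through the uninjured library, where 3 counts equal 34.3 CPM. No paired analysis was possible because each condition has 1 library and the labels give no replicate numbers, so no replicate could be left out either.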
